A study of Homo sapiens with 8 samples.

Results

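The genes described here encode carriers that move amino acids across the plasma membrane: SLC7A11, SLC3A2, SLC7A5, SLC7A1, SLC7A3, SLC1A4, SLC1A5, SLC38A1, SLC38A2 and SLC6A9. They were taken by symbol, matched to the Ensembl identifiers of the gene count table, and all 10 of the 10 had a row among its 37441 genes. RNA-seq had been run on 8 libraries, 2 for each of 4 variants of a pair of human lung cancer lines of the non-small cell type. NCI-H1581 and NCI-H1703 were sensitive to CPL304110, an inhibitor of fibroblast growth factor receptors (FGFR). NCI-H1581R and NCI-H1703R were grown from them over 4 to 6 months in CPL304110, raised from 50 nM to 2.5 µM for NCI-H1581R and to 5 µM for NCI-H1703R. All dishes were harvested 24 h after a change of medium, and whether that medium held the inhibitor is not given in the sources used here. Each resistant variant is a single selected culture, so selection and the differences between cultures of a line cannot be told apart. NCI-H1581 cells were kept in DMEM/F12 and NCI-H1703 cells in RPMI 1640, media with different amino acid contents, so line and medium cannot be told apart either. The replicate was a repeat of the seeding and harvest, and p-values measure the spread between such repeats.

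Amino acids enter cells through carriers that differ in what they bind and in what they exchange it for. SLC7A11 (xCT) brings in cystine in exchange for glutamate and feeds glutathione synthesis, SLC7A5 (LAT1) exchanges large neutral amino acids such as leucine, and both work only as pairs with the heavy chain SLC3A2 (4F2hc, CD98), which brings them to the membrane. SLC7A1 and SLC7A3 carry cationic amino acids, SLC1A4 and SLC1A5 (ASCT1 and ASCT2) exchange small neutral amino acids and, for SLC1A5, glutamine, SLC38A1 and SLC38A2 (SNAT1 and SNAT2) take up glutamine and other neutral amino acids with sodium, and SLC6A9 (GLYT1) takes up glycine. When amino acids are short or the endoplasmic reticulum is stressed, phosphorylated eIF2α raises translation of the transcription factor ATF4, and many of these carriers are among the known ATF4 targets, while SLC7A11 is also a known target of NRF2 (NFE2L2).

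The sequences below are shown because ATF4 pairs with C/EBP proteins at a composite element, best known from ASNS, the asparagine synthetase gene. Promoter windows of 300 bases, from 250 before to 50 after a transcription start, came from RefSeq for GRCh38.p14 and held 14 windows for 8 of the 10 genes. SLC7A11 and SLC7A3 had no entry. The letters TGATGNAA, searched on both strands, occurred in 5 of the 14 windows, of 5 genes, against 3.62% of all 35116 windows. Capitals mark those letters, each stretch runs 5′ to 3′ on the strand that carries them, and ASNS and CHAC1 stand beside the transporters for comparison.
ASNS: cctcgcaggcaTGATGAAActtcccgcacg
CHAC1: cctggcaggagTGATGCAAcggcaggggag
SLC1A4: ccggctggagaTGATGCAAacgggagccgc
SLC1A5: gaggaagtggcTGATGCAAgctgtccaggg
SLC38A1: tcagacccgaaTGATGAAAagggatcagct
SLC3A2: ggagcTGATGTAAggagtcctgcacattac
SLC7A1: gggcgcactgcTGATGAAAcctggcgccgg
All 7 stretches read from the minus strand of GRCh38.p14. They lie at chr7:97872458-97872487 (ASNS), chr15:40953251-40953280 (CHAC1), chr2:64989381-64989410 (SLC1A4), chr19:46784893-46784922 (SLC1A5), chr12:46266502-46266531 (SLC38A1), chr11:62881719-62881748 (SLC3A2) and chr13:29595663-29595692 (SLC7A1). In SLC1A4 and SLC38A1 the match began 7 and 4 bases before the annotated start and ran onto it, and in SLC1A5 it began 97 bases before the start. The SLC7A1 and SLC3A2 matches began at bases 8 and 38 counted from the start. Each start is that of the window and need not be the first base of the gene. The windows with matches of SLC1A4, SLC1A5, SLC38A1 and SLC3A2 lie inside the gene as bounded by GENCODE v44. That of SLC3A2 is at 62881449-62881748, and its gene begins at 62856004. That of SLC1A5 is at 46784765-46785064, and its gene, on the minus strand, begins at 46788594. A second set of letters, TGACNNNGC, the core of the antioxidant response element, occurred in windows of SLC1A5, SLC3A2, SLC7A1 and SLC7A5 against 13.3% of all windows, and its matches did not overlap those of the first set. Both searches describe letters only and say nothing of binding in these cells.

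The libraries held between 33800389 and 40031710 estimated counts. Levels are given as CPM, a gene's counts relative to the total of its library, scaled with TMM factors over the 8 libraries. Changes are log2 fold changes with standard errors (SE) from edgeR's two-sided quasi-likelihood test on the 4 libraries of a comparison, and a gene was called at a Benjamini-Hochberg adjusted p under 0.1 over 18203 tested genes. Vimentin was high in all 8 libraries (2634 to 6711 CPM), while EPCAM did not exceed 15.9 CPM and CDH1 did not exceed 1.32 CPM, so epithelial markers expected of a carcinoma were low in both lines. The other mesenchymal markers moved with resistance, FN1 from 0.623 and 1.42 to 745 and 919 CPM and ZEB1 from 1.66 and 2.3 to 18.9 and 31.7 CPM in the NCI-H1581 line, and CDH2 from 50.2 and 48.6 to 1.08 and 1.16 CPM in the NCI-H1703 line, where FN1 fell by 0.74 on the log2 scale, all called by edgeR. All 4 summed to 6104 to 6717 CPM in NCI-H1581, 4883 to 5503 in NCI-H1581R, 3726 to 3806 in NCI-H1703 and 2666 to 3105 in NCI-H1703R. The lineage markers TP63 (squamous) and NKX2-1 (lung adenocarcinoma) were called higher in NCI-H1581R by edgeR, by 2.30 and 1.81 on the log2 scale. The other markers of these lists did not follow as a set. With the replicate block KRT5 (-0.21), DSG3 (-0.20) and SFTPB (-0.73) had negative changes there, KRT6A (1.79) and NAPSA (1.01) positive ones, and none passed. The 6 epithelial markers together summed to 77.8 to 78.3 CPM in NCI-H1703 and 10.0 to 11.4 CPM in NCI-H1703R, with KRT18 the gene called lower by edgeR (KRT8 had a log2 fold change of -1.13, with an edgeR adjusted p of 0.121 and of 0.0042 with the replicate block), and to 15.7 to 23.3 CPM in the NCI-H1581 variants. Of 3 leukocyte markers, CD3E was at 0 in every library and PTPRC did not exceed 0.399 CPM, but the sum, nearly all CD68, was 77.2 to 96.9 CPM in NCI-H1581, 15.1 to 19.1 in NCI-H1581R, 20.2 to 22.4 in NCI-H1703 and 43.1 to 55.0 in NCI-H1703R. The endothelial pair PECAM1 and CDH5 summed to at most 0.449 CPM. The part of these marker differences in the transporter results was not tested.

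SLC7A11, the cystine carrier (chr4:138164097-138242349, minus strand, GRCh38), was the member that rose with resistance in both lines. In NCI-H1581 its level was 59.8 CPM in replicate 1 and 78.4 CPM in replicate 2, and in NCI-H1581R it was 142 and 153 CPM. In NCI-H1703 it was 92.3 and 88.2 CPM, and in NCI-H1703R 208 and 249 CPM. Within each line both resistant libraries lay above both sensitive ones. In RNA from whole cultures, more cells that express a gene and more RNA per cell cannot be told apart. The rise was 2.15-fold in NCI-H1581R (95% interval 1.55 to 2.98, log2 fold change 1.10, SE 0.20, edgeR adjusted p = 0.017) and 2.58-fold in NCI-H1703R (2.14 to 3.12, log2 fold change 1.37, SE 0.11, edgeR adjusted p = 0.00228). The changes in the lines differed by 0.24 on the log2 scale (95% interval -0.27 to 0.75, edgeR interaction test, adjusted p = 0.606). Of all tested genes, 0.692% were called higher in both resistant variants, and of the 9 transporters tested SLC7A11 was the only such gene. Without NCI-H1581 replicate 1 the NCI-H1581R rise was 0.91 on the log2 scale with an edgeR adjusted p of 0.221. The 865 bases of SLC7A11 exons that SLC7A11-AS1 overlaps on the opposite strand are of 9645 in all. Use of strand in counting is not stated, and SLC7A11-AS1 had no row in the gene count table.

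SLC3A2, the shared heavy chain (chr11:62856004-62888880, plus strand), measured 289 and 246 CPM in NCI-H1581, 324 and 316 CPM in NCI-H1581R, 355 and 344 CPM in NCI-H1703 and 428 and 548 CPM in NCI-H1703R. The resistant libraries were the higher in each line without overlap, but the test passed in NCI-H1703R alone. There the gene rose 1.43-fold (95% interval 1.14 to 1.78, log2 fold change 0.51, SE 0.13, edgeR adjusted p = 0.0734). In NCI-H1581R the change was 1.21-fold with an interval of 0.912 to 1.6 (edgeR adjusted p = 0.394), and the lines did not differ in the interaction test at 0.22 (95% interval -0.27 to 0.71, edgeR adjusted p = 0.632). The call in NCI-H1703R was lost when any of 3 libraries was left out, NCI-H1703 replicate 1 (edgeR adjusted p = 0.345), NCI-H1703 replicate 2 (0.343) and NCI-H1703R replicate 2 (0.147, log2 fold change 0.32). It was lost as well with another normalisation, without the filter on low counts and in a fit of all 8 libraries, with edgeR adjusted p up to 0.12, and the replicate block gave 0.00142.

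SLC7A5, the large neutral amino acid carrier (chr16:87830023-87869507, minus strand), was the most abundant of the 10 by CPM in every library. Its levels were 683 and 577 CPM in NCI-H1581, 722 and 693 in NCI-H1581R, 807 and 811 in NCI-H1703, and 723 and 809 in NCI-H1703R. The NCI-H1581R libraries lay just above those of NCI-H1581, and those of NCI-H1703R overlapped the range of NCI-H1703. No change passed the test, at 1.13-fold (95% interval 0.833 to 1.53, edgeR adjusted p = 0.627) in NCI-H1581R and 0.967-fold (0.808 to 1.16, edgeR adjusted p = 0.853) in NCI-H1703R. The intervals leave room for a rise of up to 1.53-fold in the first and 1.16-fold in the second. Its near copies SLC7A5P1 and SLC7A5P2 had at most 37 counts per library, beside 23033 or more for SLC7A5.

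**Figure D1:**
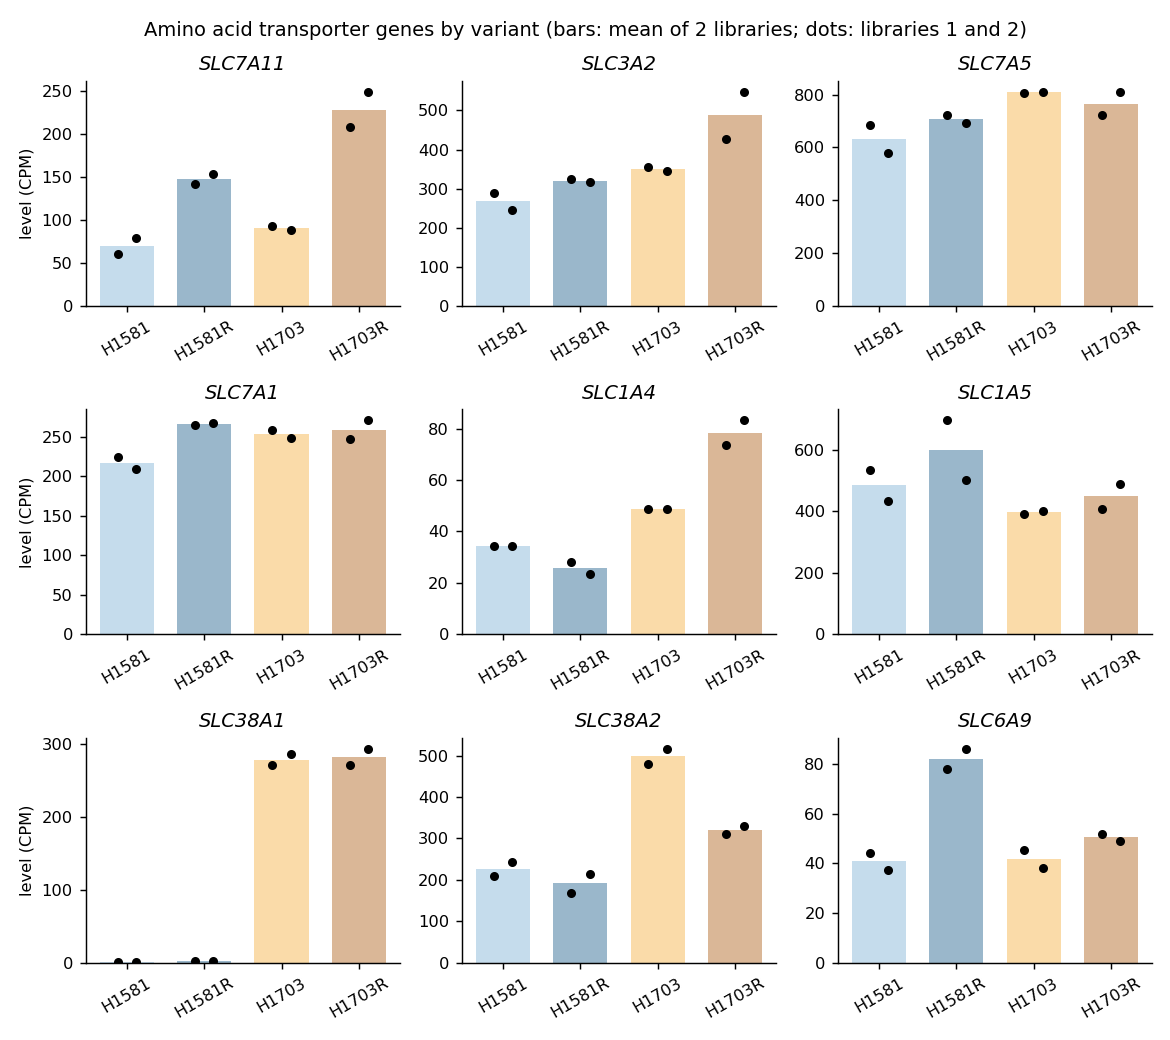
Level in CPM (vertical axis, from 0) of the 9 detected transporter genes in the 4 variants, with bars for the mean of 2 libraries and dots for the libraries themselves. SLC7A11 rises in both lines, to 142 and 153 CPM in NCI-H1581R and 208 and 249 CPM in NCI-H1703R, and SLC38A1 is near 0 in both NCI-H1581 variants.

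The partners of SLC3A2 thus stood in changed proportion to each other. Per kilobase of the canonical transcript, SLC7A5 exceeded SLC7A11 by 24.2 and 15.6 times in the NCI-H1581 libraries and by 10.7 and 9.57 times in those of NCI-H1581R. In the NCI-H1703 libraries it exceeded SLC7A11 18.5 and 19.5 times, and in those of NCI-H1703R 7.36 and 6.89 times. The ratio of SLC3A2 to SLC7A11 went from 24.7 and 16.0 to 11.6 and 10.6 in the NCI-H1581 line and from 19.7 or more to 10.5 and 11.3 in the NCI-H1703 line. In both lines the resistant libraries lay below the sensitive ones, an order that no choice of length changes. The size of the ratios does depend on it. Per kilobase of coding sequence, a length chosen after seeing the data, SLC7A5 exceeded SLC7A11 by 7.28 to 11.3 times in the sensitive libraries and by 3.22 to 5.01 times in the resistant ones, and SLC3A2 exceeded it by 2.97 to 4.58 and by 1.95 to 2.16 times. The sum of SLC7A5 and SLC7A11 relative to SLC3A2, per kilobase of the canonical transcript, was between 0.992 and 1.04 in 6 libraries and was 0.794 and 0.7 in those of NCI-H1703R, where SLC3A2 rose and SLC7A5 did not pass the test. Per kilobase of coding sequence it was 2.65 to 2.8 in the 6 libraries and 2.27 and 2.02 in NCI-H1703R. These ratios are descriptions of RNA, have no test, and leave out the other carriers known to pair with SLC3A2.

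**Figure D2:**
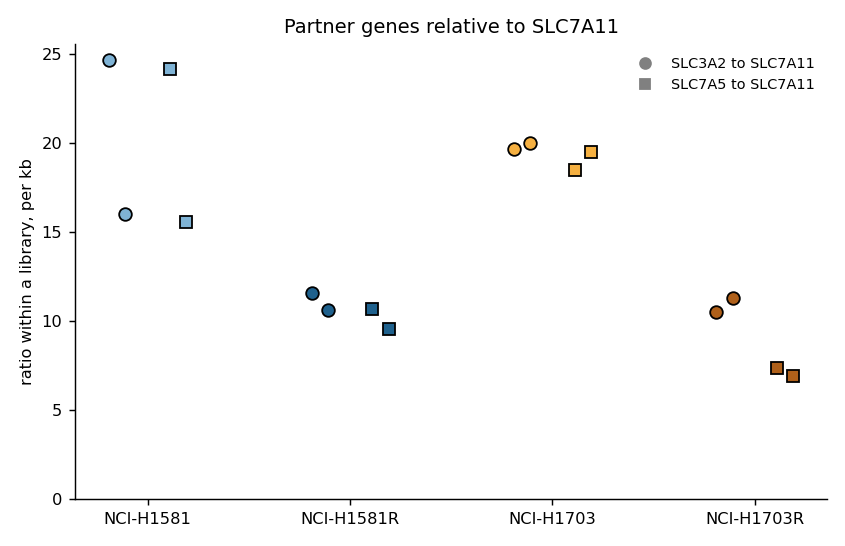
Ratio of SLC3A2 (circles) and of SLC7A5 (squares) to SLC7A11 within each library, from levels per kilobase of the canonical transcript, with a linear axis from 0 and 2 libraries per variant. In NCI-H1703R the SLC7A5 ratio is 7.36 and 6.89, below the 18.5 and 19.5 of NCI-H1703, and in NCI-H1581R it is 10.7 and 9.57, below the 24.2 and 15.6 of NCI-H1581.

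SLC7A1, the main cationic amino acid carrier of dividing cells (chr13:29509414-29595688, minus strand), varied little between variants. Its levels were 225 and 209.6 CPM in NCI-H1581, 265 and 267 in NCI-H1581R, 259 and 248 in NCI-H1703, and 247 and 271 in NCI-H1703R. The change was 1.23-fold in NCI-H1581R (95% interval 0.949 to 1.6, edgeR adjusted p = 0.307), without overlap of the libraries, and 1.05-fold in NCI-H1703R (0.896 to 1.22, edgeR adjusted p = 0.732), with overlap. SLC7A3, its relative on chrX:70925579-70931125 (minus strand), had 0 counts in all 8 libraries and was not tested. A count of 0 allows up to 3 counts, or 0.0749 to 0.0897 CPM depending on the library, for counting error only.

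SLC1A4, the carrier of alanine, serine, cysteine and threonine (chr2:64988477-65023865, plus strand), moved in NCI-H1703R and had the opposite sign in NCI-H1581R. Its levels were 34.4 and 34.4 CPM in NCI-H1581 and 28.1 and 23.5 CPM in NCI-H1581R. They were 48.8 and 48.9 CPM in NCI-H1703 and 73.5 and 83.3 CPM in NCI-H1703R. The libraries did not overlap in either line. The gene rose 1.64-fold in NCI-H1703R (95% interval 1.39 to 1.94, log2 fold change 0.71, SE 0.10, edgeR adjusted p = 0.0128), a call lost without either NCI-H1703 library (0.17 without replicate 1 and 0.162 without replicate 2). In NCI-H1581R it stood at 0.755-fold of NCI-H1581 (0.56 to 1.02, edgeR adjusted p = 0.231), called without NCI-H1581R replicate 1 (log2 fold change -0.53, edgeR adjusted p = 0.059) and in the fit of all 8 libraries (0.0722). The difference between the lines was 1.10 on the log2 scale (95% interval 0.67 to 1.53, SE 0.19, edgeR interaction test, adjusted p = 0.00824), and it passed the test in 8 of 8 fits that left out a library.

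SLC1A5, the glutamine exchanger (chr19:46774883-46788594, minus strand), measured 535 and 433 CPM in NCI-H1581, 696 and 503 CPM in NCI-H1581R, 391 and 401 CPM in NCI-H1703 and 407 and 489 CPM in NCI-H1703R. The NCI-H1581 variants overlapped and the NCI-H1703 variants did not. Its changes were 1.25-fold in NCI-H1581R (95% interval 0.861 to 1.81, edgeR adjusted p = 0.454) and 1.16-fold in NCI-H1703R (0.95 to 1.41, edgeR adjusted p = 0.334), and neither passed. The edgeR fit with the replicate block called the NCI-H1703R change (adjusted p = 0.04), and leaving out NCI-H1581R replicate 2 called that of NCI-H1581R (log2 fold change 0.52, edgeR adjusted p = 0.0666). A non-coding gene overlaps SLC1A5 exons by 780 bases on the opposite strand.

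SLC38A1 and SLC38A2, sodium-coupled carriers of glutamine and alanine, are neighbours on chromosome 12 (chr12:46183063-46270017 and chr12:46358188-46372773, both minus strand) and did not move together. SLC38A1 had only 18 and 26 counts in NCI-H1581 (0.534 and 0.649 CPM) and 86 and 84 counts in NCI-H1581R (2.29 and 2.13 CPM). In the NCI-H1703 line it was abundant, at 271 and 287 CPM in NCI-H1703 and 271 and 294 CPM in NCI-H1703R. The NCI-H1581 variants did not overlap each other, and the NCI-H1703 variants did. The gene rose 3.71-fold in NCI-H1581R (95% interval 1.73 to 7.96, log2 fold change 1.89, SE 0.46, edgeR adjusted p = 0.0514), still far below the NCI-H1703 line. This call was lost without NCI-H1581 replicate 1 (edgeR adjusted p = 0.22) and without NCI-H1581 replicate 2 (0.192). The change in NCI-H1703R was 1.03-fold (0.878 to 1.22, edgeR adjusted p = 0.83), and the lines differed by -1.87 on the log2 scale (95% interval -2.55 to -1.18, SE 0.30, edgeR interaction test, adjusted p = 0.00606), a call kept in 8 of 8 fits that left out a library.

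SLC38A2 measured 209.6 and 242 CPM in NCI-H1581, 169 and 215 CPM in NCI-H1581R, 481 and 517 CPM in NCI-H1703 and 310.2 and 331 CPM in NCI-H1703R. It was the member that fell in NCI-H1703R, where the libraries did not overlap, by 1.52-fold (log2 fold change -0.61, 95% interval -0.85 to -0.36, SE 0.10, edgeR adjusted p = 0.0216). Without NCI-H1703 replicate 1 the edgeR adjusted p was 0.176 and without replicate 2 it was 0.231. In NCI-H1581R, where the libraries overlapped, the level was 0.856-fold of NCI-H1581 (0.617 to 1.19, edgeR adjusted p = 0.559). Without NCI-H1581R replicate 2 this became a call (log2 fold change -0.43, edgeR adjusted p = 0.0965). The lines differed by -0.40 (95% interval -0.89 to 0.09, edgeR interaction test, adjusted p = 0.311), a difference called without NCI-H1581R replicate 1 (-0.57, edgeR adjusted p = 0.0553). Within a library SLC38A2 exceeded SLC38A1, per kilobase of the canonical transcript, by 663 and 629 times in NCI-H1581, 125 and 170.2 times in NCI-H1581R, 3.0 and 3.05 times in NCI-H1703 and 1.94 and 1.9 times in NCI-H1703R. Per kilobase of coding sequence the ratio was 71.1 to 378 in the NCI-H1581 variants and 1.08 to 1.74 in the NCI-H1703 variants.

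SLC6A9, the glycine carrier (chr1:43991500-44031467, minus strand), rose in NCI-H1581R. Its levels were 44.4 and 37.4 CPM in NCI-H1581 and 78.1 and 86.3 CPM in NCI-H1581R, then 45.3 and 38.3 CPM in NCI-H1703 and 52.0 and 49.1 CPM in NCI-H1703R. The resistant libraries lay above the sensitive ones in both lines, and the sensitive lines started from like levels. The rise was 2.03-fold in NCI-H1581R (95% interval 1.52 to 2.7, log2 fold change 1.02, SE 0.17, edgeR adjusted p = 0.014), lost without NCI-H1581 replicate 1 (0.133) and replicate 2 (0.231). In NCI-H1703R the change was 1.24-fold (1.02 to 1.49, log2 fold change 0.30, SE 0.11, edgeR adjusted p = 0.167), and it passed with the replicate block (0.0144). The lines differed by -0.74 on the log2 scale (95% interval -1.20 to -0.27, SE 0.20, edgeR interaction test, adjusted p = 0.0543), and this passed in 3 of 8 fits that left out a library. It was lost without NCI-H1581 replicate 2 (-0.62, edgeR adjusted p = 0.174), without NCI-H1703 replicate 1 (-0.61, 0.219) or 2 (-0.82, 0.104) and without NCI-H1703R replicate 1 (-0.78, 0.139) or 2 (-0.70, 0.186). CCDC24 overlaps SLC6A9 exons by 413 bases on the opposite strand and had 317 to 743 counts per library, beside 1282 to 3396 for SLC6A9.

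**Figure D3:**
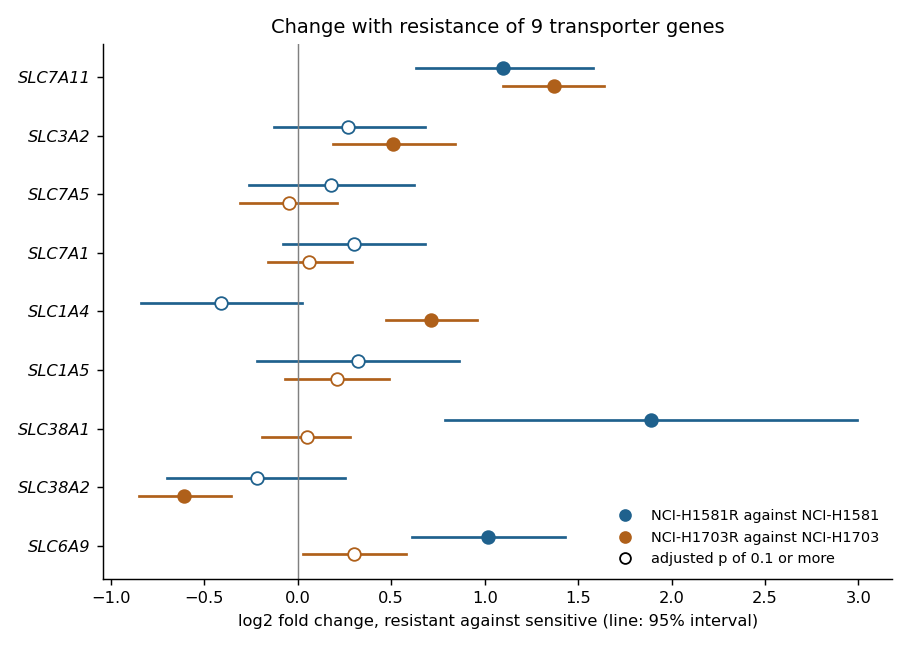
Log2 fold change of 9 transporter genes with resistance (horizontal axis, with lines for 95% intervals) in NCI-H1581R (blue) and NCI-H1703R (brown), filled where the edgeR adjusted p was under 0.1. SLC7A11 is filled in both, at 1.10 and 1.37, while SLC1A4, SLC38A1 and SLC6A9 differ between the lines.

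Counted over the set, 3 of the 9 tested transporters (SLC7A11, SLC38A1 and SLC6A9) were called higher in NCI-H1581R and 0 lower by edgeR, where 7.63% of all tested genes were called higher and 7.44% lower. No member was called lower by DESeq2 either, or at an unadjusted p under 0.05. In the fit of all 8 libraries SLC1A4 was called lower (edgeR adjusted p = 0.0722), where 12.1% of all genes were. Its log2 fold change was -0.53 without NCI-H1581R replicate 1. In NCI-H1703R 3 were called higher (SLC7A11, SLC3A2 and SLC1A4) and 1 lower (SLC38A2), where the background was 7.06% higher and 7.67% lower. Their median log2 fold change was 0.30 in NCI-H1581R, beside 0.04 over all genes, and 0.21 in NCI-H1703R, beside 0.00. With the replicate block 6 were called in NCI-H1703R, SLC1A5 and SLC6A9 being added, at a background of 18.2% higher and 16.7% lower. The interaction test called 3 of 9 (SLC1A4, SLC38A1 and SLC6A9), where 15.4% of all genes were called. These counts fell without a sensitive library, and so did those over all genes. Without NCI-H1581 replicate 1 edgeR called 0 members in NCI-H1581R (3 at an unadjusted p under 0.05) and 6.37% of all genes, and without NCI-H1581 replicate 2 it called 1 member and 6.2%, beside 15.1% with all libraries. Without NCI-H1581R replicate 2 it called more members and more of all genes, and SLC38A2 was then among the members called, as lower (log2 fold change -0.43). Without NCI-H1703 replicate 1 or replicate 2 it called 1 in NCI-H1703R, SLC7A11, with edgeR adjusted p up to 0.0995, and 1.61% and 1.51% of all genes beside 14.7% with all libraries.

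Between the lines calls were more frequent, as over all genes. Of the sensitive lines, NCI-H1703 was called higher than NCI-H1581 for 7 of the 9 transporters and lower for 1 (SLC1A5), where 32.5% of all genes were called higher and 30.4% lower. SLC38A1 stood apart, at 464-fold higher (95% interval 348 to 620.4, log2 fold change 8.86, edgeR adjusted p = 6.73e-08). SLC38A2 was 2.21-fold higher (1.83 to 2.66, edgeR adjusted p = 0.000111) and SLC1A4 1.42-fold higher (1.19 to 1.69, edgeR adjusted p = 0.00511). SLC3A2, SLC7A11, SLC7A5 and SLC7A1 were 1.31-, 1.3-, 1.28- and 1.17-fold higher, and SLC1A5 was 1.22-fold lower. For SLC6A9 the ratio was 1.03 (95% interval 0.83 to 1.27). The smaller of these calls depended on single libraries. SLC7A11 (edgeR adjusted p = 0.0591), SLC7A1 (0.067) and SLC1A5 (0.0639) were each lost in 3 of the 4 fits that left out a library. Leaving out NCI-H1581 replicate 1 (0.155 and 0.311), NCI-H1703 replicate 1 (0.152 and 0.201) or NCI-H1703 replicate 2 (0.12 and 0.105) lost SLC7A11 and SLC1A5 in turn, and leaving out NCI-H1581 replicate 2 (0.201), NCI-H1703 replicate 1 (0.194) or NCI-H1703 replicate 2 (0.138) lost SLC7A1, all by edgeR adjusted p. SLC7A5 was not called without NCI-H1581 replicate 2 (log2 fold change 0.24). Other settings lost calls as well. SLC1A5 was lost with the replicate block (edgeR adjusted p = 0.1) and in the fit of all 8 libraries (0.235). SLC7A1 was lost in that fit and with another normalisation, with edgeR adjusted p up to 0.141.

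Of the resistant variants, NCI-H1703R was called higher than NCI-H1581R for 5 transporters and lower for 1, where 25.9% of all genes were called higher and 26.7% lower. SLC38A1 was 131-fold higher (95% interval 92.7 to 185, edgeR adjusted p = 2.65e-05), SLC1A4 3.12-fold (2.31 to 4.2, edgeR adjusted p = 0.00129), SLC38A2 1.71-fold (1.25 to 2.36), SLC7A11 1.58-fold (1.19 to 2.1) and SLC3A2 1.56-fold (1.12 to 2.17). SLC6A9 was 1.59-fold lower (log2 fold change -0.66, edgeR adjusted p = 0.0172). The calls for SLC38A2, SLC7A11, SLC3A2 and SLC6A9 were lost without NCI-H1703R replicate 1 (edgeR adjusted p from 0.125 to 0.163) and without NCI-H1703R replicate 2 (0.163 to 0.43), and that for SLC3A2 with the replicate block (0.158). Without NCI-H1581R replicate 2, SLC1A5 was called lower (log2 fold change -0.61, edgeR adjusted p = 0.062). Both comparisons across lines use libraries that also enter the comparisons with resistance, so these values are given side by side only.

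Levels of different genes were compared per kilobase of the canonical transcript (GENCODE v44), as CPM per kb. In NCI-H1581 the order was SLC1A5 (168), SLC3A2 (142), SLC7A5 (138), SLC38A2 (47.1), SLC7A1 (29.6), SLC6A9 (12.8), SLC1A4 (7.53), SLC7A11 (7.16) and SLC38A1 (0.0731). The leading 3 were not separated by their libraries, nor were SLC1A4 and SLC7A11. In NCI-H1581R the order began the same way, at 208, 169.9 and 155 CPM per kb, SLC38A2 and SLC7A1 (36.3) overlapped, and SLC6A9 (25.6) and SLC7A11 (15.3) stood above SLC1A4 (5.65) and SLC38A1 (0.273). In NCI-H1703 SLC3A2 (185) and SLC7A5 (178) led, then SLC1A5 (137) and SLC38A2 (104), then SLC7A1 (34.5) and SLC38A1 (34.4), which overlapped, then SLC6A9 (13.0), SLC1A4 (10.7) and SLC7A11 (9.36). SLC7A11 was thus the lowest of the 9 in NCI-H1703 by this length alone. Per kilobase of coding sequence it ranked 7 there (60.0), above SLC1A4 (30.6) and SLC6A9 (22.0), and by the longest transcript it ranked 8. In NCI-H1703R, per kilobase of the canonical transcript, SLC7A11 ranked 7 at 23.7 CPM per kb. It stood above SLC1A4 (17.2) and SLC6A9 (15.8), which overlapped, and SLC3A2 led at 259. The order depends on the length used, since genes such as SLC7A11 have long untranslated ends, 1503 of its 9645 bases being coding.

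**Figure D4:**
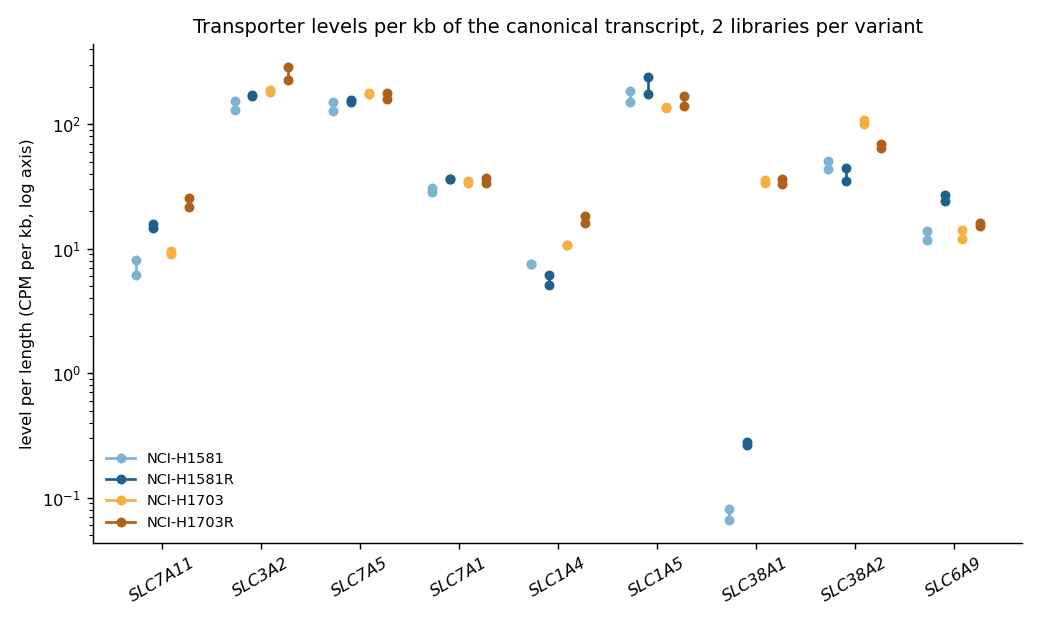
Level per kilobase of the canonical transcript (CPM per kb, log axis) of 9 transporter genes, with 2 joined points for the 2 libraries of each variant. SLC3A2, SLC7A5 and SLC1A5 lie above the rest in all 4 variants, and SLC38A1 lies at 0.0731 and 0.273 CPM per kb in the NCI-H1581 variants and near 34.4 and 34.9 in the NCI-H1703 variants.

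Together the 10 genes took 1858 to 2427 CPM in the NCI-H1581 variants and 2720 to 3124 CPM in the NCI-H1703 variants. SLC7A11 made up 2.87% and 4.22% of that sum in the NCI-H1581 libraries, 5.87% and 6.78% in NCI-H1581R, 3.36% and 3.17% in NCI-H1703 and 7.65% and 7.96% in NCI-H1703R. SLC7A5 made up between 25.9% and 32.8%. The genes whose centred log2 CPM followed SLC7A11 most closely over the 8 libraries were ROBO1 (root mean square distance 0.151), ASMTL (0.183), PPP2R3A (0.277), PCK2 (0.279) and MAPRE3 (0.286), among 11173 genes with a median distance of 0.799. For SLC7A5, whose level varied little, they were UCK2 (0.0644), XAB2 (0.0668), TFCP2 (0.0676), RFC4 (0.0683) and C2orf76 (0.0765), with a median of 0.443. ROBO1, a guidance receptor, averaged 52.5, 121, 70.8 and 164 CPM in NCI-H1581, NCI-H1581R, NCI-H1703 and NCI-H1703R, and PCK2, the mitochondrial phosphoenolpyruvate carboxykinase, 63.5, 172, 86.2 and 159 CPM.

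Of 31 other plasma membrane amino acid transporters, 23 had enough counts to be tested. In NCI-H1581R 2 were called higher and 6 lower, beside 7.63% and 7.44% of all genes, and in NCI-H1703R 3 higher and 2 lower, beside 7.06% and 7.67%. Their medians were -0.26 and -0.31 on the log2 scale beside 0.04 and 0.00 over all genes. SLC38A5 (SNAT5), a glutamine and glycine carrier, measured 355 and 269.6 CPM in NCI-H1581 and 1.14 and 0.711 CPM in NCI-H1581R. That is a log2 fold change of -8.38 (SE 0.31, edgeR adjusted p = 4.16e-05, called also without each library in turn), with 43 and 28 counts left in NCI-H1581R. In NCI-H1703 it had 18 counts and 1 count and in NCI-H1703R 11 and 5. SLC7A2, a cationic amino acid carrier like SLC7A1, went from 10.0 and 7.39 CPM in NCI-H1581 to 80.7 and 73.6 CPM in NCI-H1581R (log2 fold change 3.17, SE 0.21, edgeR adjusted p = 0.000313). SLC6A6, the taurine carrier, went from 0.653 and 1.05 to 5.29 and 4.37 CPM (log2 fold change 2.48, SE 0.41, edgeR adjusted p = 0.0124). Without NCI-H1581 replicate 1 it was not called.

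SLC6A17, a carrier of neutral amino acids known mainly from synaptic vesicles although it stands in this list, fell in both lines. It went from 12.5 and 10.2 to 1.7 and 2.16 CPM in the NCI-H1581 line (log2 fold change -2.54, SE 0.29, edgeR adjusted p = 0.003) and from 33.6 and 31.7 to 19.1 and 17.5 CPM in the NCI-H1703 line (-0.81, SE 0.11, edgeR adjusted p = 0.0133). SLC7A6, which like SLC7A5 pairs with SLC3A2, was the other gene lower in both (-0.96, SE 0.17, and -0.44, SE 0.09, edgeR), its call in NCI-H1703R being lost also without NCI-H1703R replicate 2. SLC1A1, a glutamate and cysteine carrier, rose in NCI-H1703R from 1.03 and 0.957 to 5.23 and 5.38 CPM (log2 fold change 2.45, SE 0.28, edgeR adjusted p = 0.00682). SLC43A1 (LAT3) rose there from 2.6 and 3.05 to 8.09 and 6.49 CPM (1.40, edgeR). SLC36A1, a proton-coupled carrier of small amino acids, fell in NCI-H1581R from 62.9 and 59.8 to 36.0 and 34.0 CPM (-0.80, SE 0.16, edgeR adjusted p = 0.0261) and rose in NCI-H1703R from 62.1 and 61.1 to 88.6 and 89.4 CPM (0.56, SE 0.08, edgeR adjusted p = 0.0167). Without NCI-H1703 replicate 1 edgeR called 0 of these 23 genes in NCI-H1703R (3 higher and 3 lower at an unadjusted p under 0.05), and without replicate 2 also 0 (3 and 4), in fits that called 1.61% and 1.51% of all genes. In NCI-H1581R fewer of the list were called without a NCI-H1581 library, as over all genes, and SLC36A1 and SLC7A6 lost their calls without either.

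The amino acid response through ATF4 was read from 22 genes, all tested. In NCI-H1581R 13 were called higher and 0 lower, beside 7.63% and 7.44% of all genes, and in NCI-H1703R 9 higher and 1 lower, beside 7.06% and 7.67%. In NCI-H1581R the count lower was 0 also by DESeq2 and at an unadjusted p under 0.05, and was 1 in the fit of all 8 libraries and without either NCI-H1581R library. The medians were 1.06 and 0.37 beside 0.04 and 0.00 over all genes. Called higher in both were DDIT3, CHAC1, SESN2, ASNS, PSAT1, PHGDH and PCK2, 7 of the 22, where 0.692% of all tested genes were. ATF4 itself measured 203 and 221 CPM in NCI-H1581, 481 and 537 in NCI-H1581R, 430.5 and 410.3 in NCI-H1703, and 492 and 523 in NCI-H1703R. It rose in NCI-H1581R (log2 fold change 1.27, SE 0.18, edgeR adjusted p = 0.00662). In NCI-H1703R its change was 0.30 (SE 0.09, edgeR adjusted p = 0.109), and it passed with the replicate block (0.00482). NCI-H1703 thus lay closer to the resistant variants in ATF4 RNA than NCI-H1581 did.

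ASNS, which makes asparagine, went from 142 and 180.5 to 497 and 506 CPM in the NCI-H1581 line (log2 fold change 1.64, SE 0.20, edgeR adjusted p = 0.0034) and from 254 and 252 to 327 and 340 CPM in the NCI-H1703 line (0.43, SE 0.09, edgeR adjusted p = 0.0373). CHAC1, which degrades glutathione, went in the NCI-H1581 line from 9.76 and 9.36 to 97.8 and 109 CPM (3.45, SE 0.18, edgeR adjusted p = 0.000127), and in the NCI-H1703 line from 42.5 and 40.9 to 64.1 and 70.0 CPM (0.72, SE 0.09, edgeR adjusted p = 0.0106). SESN2, a leucine sensor that restrains mTORC1, rose by 1.03 (SE 0.16) and 0.57 (SE 0.11). DDIT3 (CHOP), a stress transcription factor, rose by 1.27 (SE 0.29) and 1.24 (SE 0.16). TRIB3, a pseudokinase that binds ATF4, rose in NCI-H1703R (0.55, SE 0.10, edgeR adjusted p = 0.0287) and in NCI-H1581R had a change of 0.45 (SE 0.18, edgeR adjusted p = 0.192), which was called without NCI-H1581R replicate 2. The interaction test called 9 of the 22, where 15.4% of all genes were called. All 9 had the smaller or more negative change in the NCI-H1703 line. The other 13, DDIT3, SESN2 and TRIB3 among them, did not pass the interaction test, and neither did SLC7A11. Without NCI-H1581 replicate 1 or replicate 2, 5 genes of the list were called higher in NCI-H1581R by edgeR, where 3.09% and 2.75% of all genes were. Without NCI-H1703 replicate 1, 2 were called higher in NCI-H1703R, and without NCI-H1703 replicate 2, 0 (8 at an unadjusted p under 0.05), where 0.461% and 0.439% of all genes were. The fit of all 8 libraries called 5 higher there, beside 3.73% of all genes.

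**Figure D5:**
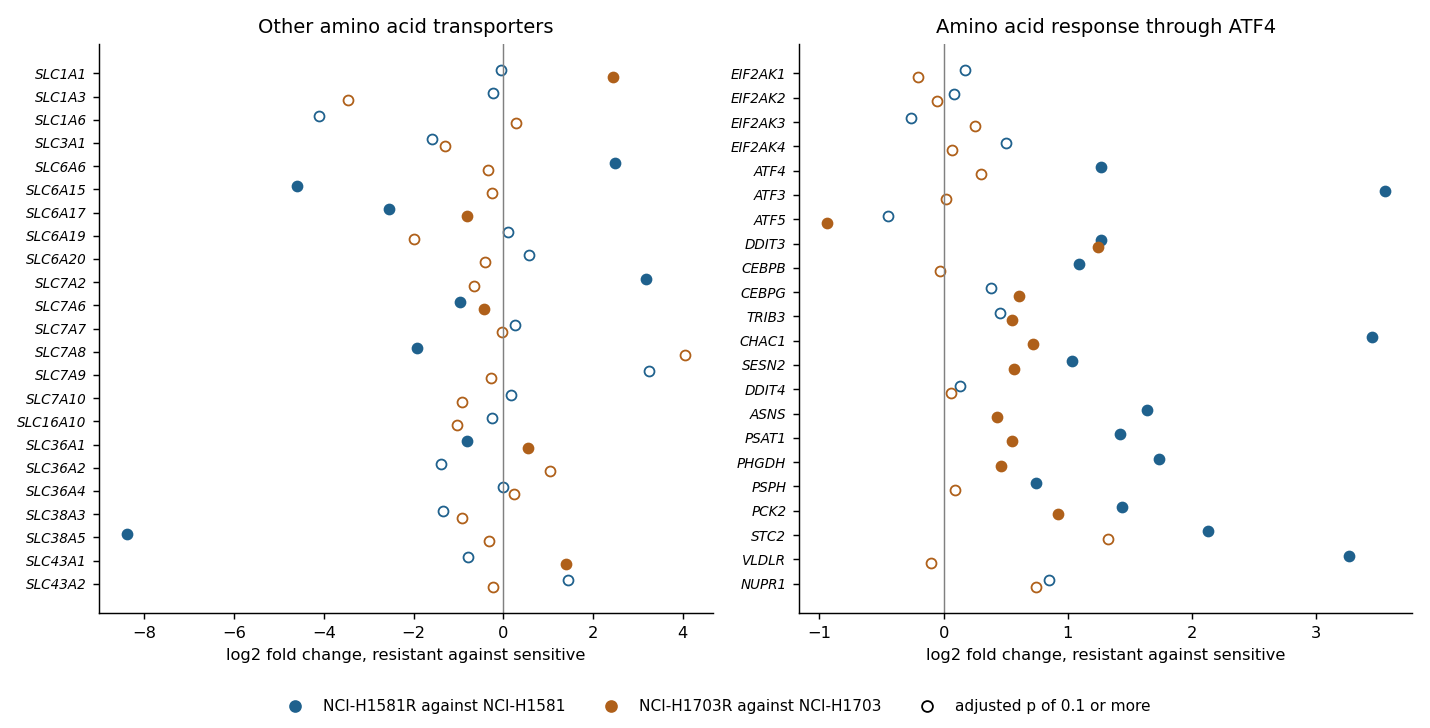
Log2 fold change with resistance (horizontal axis) of 23 other amino acid transporters (left) and of 22 genes of the amino acid response through ATF4 (right), blue for NCI-H1581R and brown for NCI-H1703R, filled where the edgeR adjusted p was under 0.1. On the left SLC38A5 stands at -8.38 in NCI-H1581R, and on the right 13 blue and 9 brown filled points lie above 0 and 1 brown point, ATF5, lies below.

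Cystine that SLC7A11 brings in is reduced to cysteine and used for glutathione. Of 13 genes of glutathione synthesis and cystine use, 2 were called higher and 1 lower in NCI-H1581R, beside 7.63% and 7.44% of all genes. In NCI-H1703R 5 were called higher and 0 lower (1 lower by DESeq2, 1 at an unadjusted p under 0.05 and 1 with the replicate block), beside 7.06% and 7.67%. GCLM, the modifier subunit of glutamate-cysteine ligase and a known NRF2 target, measured 81.7 and 87.0 CPM in NCI-H1703 and 119.6 and 144 CPM in NCI-H1703R. It rose there (log2 fold change 0.67, SE 0.12, edgeR adjusted p = 0.0248) and had a change of 0.30 (SE 0.18, edgeR adjusted p = 0.378) in NCI-H1581R. GCLC, the catalytic subunit, changed by 0.10 (SE 0.23, edgeR adjusted p = 0.842) and 0.25 (SE 0.25, edgeR adjusted p = 0.612), and neither passed. CBS, which makes cystathionine on the way from methionine to cysteine, was the gene called higher in both, where 0.692% of all tested genes were. AIFM2 was the one called lower in NCI-H1581R. In NCI-H1703R edgeR called 3 of the list higher with the other normalisation, where 6.19% of all genes were called higher, and 3 with no filter on low counts (5.16%). A fit of all 8 libraries called 1 higher (3.73%). In each line fewer of the list were called higher without a sensitive library, as over all genes, and without replicate 2 of the resistant variant. Such fits have 1 library in a variant.

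Of 15 genes by which mTORC1 senses amino acids, 0 were called higher and 1 lower in NCI-H1581R, beside 7.63% and 7.44% of all genes, and 5 higher and 0 lower in NCI-H1703R, beside 7.06% and 7.67%. Both counts of 0 were the same by DESeq2 and at an unadjusted p under 0.05. The fit of all 8 libraries called 2 higher and 3 lower in NCI-H1581R, beside 12.8% and 12.1% of all genes. It called 3 higher in NCI-H1703R, beside 3.73%. SESN1, a leucine sensor, changed by 0.35 (SE 0.22, edgeR adjusted p = 0.399) and -0.22 (SE 0.16, edgeR adjusted p = 0.464). SLC38A9, the arginine sensor of the lysosome, changed by -0.26 (SE 0.19, edgeR adjusted p = 0.484) and -0.09 (SE 0.12, edgeR adjusted p = 0.723). The gene called in both was RRAGD, a lysosomal GTPase chosen for mention after its values were seen, which fell in NCI-H1581R (-1.03, SE 0.18, edgeR adjusted p = 0.017) and rose in NCI-H1703R (3.64, SE 0.26, edgeR adjusted p = 0.00167). The replicate block called 8 of the list higher in NCI-H1703R, where it called 18.2% of all genes higher. The number of the list called depended on single libraries in both lines. When 1 library was left out, it fell where the number over all genes fell and rose where that number rose. Such fits have 1 library in a variant.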

How the data were processed

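RNA-seq data of 8 libraries, 2 for each variant, were analysed. The authors deposited estimated counts per gene, made with Salmon (after cutadapt, per the processing notes) against GRCh38 and summed with tximport, as whole numbers that are not normalised. Tool versions, annotation and use of strand are not given in the sources used here. Groups and replicate numbers came from the labels. Genes with at least 10 counts over the 8 libraries were tested with edgeR 4.0.16 in R 4.3.3 (TMM, quasi-likelihood test with legacy=FALSE, two-sided) within each pair of variants, and the difference between lines as an interaction in a fit of all 8 libraries. Each p was adjusted by Benjamini-Hochberg and called under 0.1. The SE was the log2 fold change divided by the root of F. Positions and lengths came from GENCODE v44, promoters from RefSeq. The 10 members and all lists were chosen with earlier results of these data known, and the lists support nothing on their own. Named were all members, fixed genes of each list and up to 4 called transporters per line by size of change, with a mean of at least 1 CPM in a variant. SLC7A6, PSAT1, PHGDH, CBS, AIFM2, ATF5 and RRAGD were named outside this rule, after their calls were seen, and GSS for its low counts.

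Levels per gene carry counting error that is small beside the level of each member except for SLC38A1 in the NCI-H1581 line and SLC7A3. It is not always small beside the spread of 2 replicates, which can lie very close together. For SLC1A4 in NCI-H1581 they were at 34.4 and 34.4 CPM. Over the genes together, replicates of every variant differed by more than sampling noise. Differences between replicates correlated between the variants of a line over 11174 genes (r = 0.196 for NCI-H1581 and 0.406 for NCI-H1703), and the labels' protocol says that the procedure was repeated for the second replicate. The replicate block is therefore given where it changed a member's call. With it the ATF4 response gave 10 higher and 2 lower in NCI-H1703R, beside 18.2% and 16.7% of all genes. Glutathione gave 6 and 1 there and other transporters 3 and 3. In NCI-H1581R other transporters gave 3 and 7, beside 9.21% and 8.88% of all genes. Alternatives were DESeq2 1.42.0, RLE normalisation, 2 other filters, the block, a threshold of 0.05, a fit of all 8 libraries, legacy quasi-dispersions and leaving out each library. The scripts were tested on simulated data.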

Additional observations from a re-analysis of the deposited data

Results flagged for a closer look

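The following genes changed differently with resistance in the lines by edgeR's interaction test (change in the NCI-H1703 line minus change in the NCI-H1581 line, log2, adjusted p by Benjamini-Hochberg over 18203 genes). Among the 10 members these were SLC1A4 (1.10, adjusted p = 0.00824), SLC38A1 (-1.87, adjusted p = 0.00606) and SLC6A9 (-0.74, adjusted p = 0.0543). Among the other transporters they were SLC38A5 (8.05, adjusted p = 0.012), SLC7A2 (-3.84, adjusted p = 0.000404), SLC6A17 (1.71, adjusted p = 0.00574), SLC6A6 (-2.83, adjusted p = 0.0491), SLC43A1 (2.17, adjusted p = 0.0126) and SLC36A1 (1.34, adjusted p = 0.00115). SLC6A17 fell in both lines, and its positive value reflects the smaller fall in the NCI-H1703 line. In the amino acid response through ATF4 they were ATF4 (-0.99, adjusted p = 0.00947), ASNS (-1.24, adjusted p = 0.00547) and CHAC1 (-2.75, adjusted p = 6.22e-05). These are members, fixed genes of the lists and transporters named by size of change, not every gene called. In all the test called 8 of the 23 other transporters and 9 of the 22 genes of the ATF4 response, where 15.4% of all genes were called. RRAGD was called too. The difference for SLC38A5 was not called without NCI-H1703R replicate 1, and that for SLC6A6 not without NCI-H1581 replicate 1, NCI-H1581 replicate 2 or NCI-H1703 replicate 2. Groups of 2 libraries are too small for a test of single outlying libraries.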

How the results depend on the processing

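With 1 library left out, the number of members called ranged from 0 to 5 in NCI-H1581R against NCI-H1581 (3 with all libraries), 1 to 4 in NCI-H1703R against NCI-H1703 (4), 2 to 4 in the interaction (3), 5 to 6 in NCI-H1703 against NCI-H1581 (8) and 2 to 7 in NCI-H1703R against NCI-H1581R (6). A lone library is there assumed to vary like the others. At an adjusted p under 0.05 the NCI-H1703 against NCI-H1581 count was 5, beside 56.2% of all genes. Small changes reversed sign, over the left-out fits SLC7A5 (-0.13 to 0.04), SLC7A1 (-0.01 to 0.14) and SLC38A1 (-0.01 to 0.11) in NCI-H1703R, SLC1A5 in the interaction (-0.35 to 0.12), SLC7A1 between the resistant variants (-0.12 to 0.05) and SLC6A9 between the sensitive lines (-0.08 to 0.16, and -0.00055 with 10 counts in every library). The cause was not tested. No called member reversed.

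The replicate block called 3, 6, 3, 7 and 5 members in these comparisons, beside 18.1%, 34.9%, 18.9%, 62.7% and 42.0% of all genes. Beyond the changes given with the results it moved no member across the threshold. Replicate differences of NCI-H1581R and NCI-H1703R ran against each other (r = -0.452). A block with crossed numbers, chosen after seeing the data, called 6 members there and 11063 genes, beside 7638 with the plain block and 9565 without. Depth limits SLC7A3, at 0 counts, and SLC38A1 in the NCI-H1581 line, at 18 to 86 counts.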
